A study of Drosophila melanogaster with 6 samples.

Results

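The Oatp genes of *Drosophila melanogaster* encode organic anion transporting polypeptides, and 8 of them were found among the 14862 genes of the authors' deposited table by gene names that begin with Oatp. The 8 genes are Oatp26F, Oatp30B, Oatp33Ea, Oatp33Eb, Oatp58Da, Oatp58Db, Oatp58Dc and Oatp74D. The family was singled out because of its fold changes in this same comparison, so the values below describe it and are not a test of it. The study asked which oocyte transcripts differ when insulin signalling is suppressed. Its 6 samples were pools of 200 stage 14 oocytes, the last stage before the egg is laid. In 3 samples the genotype was GFP control and in 3 it was InR-DN, a form of the insulin receptor with which the submitters suppress that signalling, and all flies were fed standard food with yeast paste. The sources used here give neither the driver that expresses GFP or InR-DN nor the age of the flies. The labels also call the InR-DN samples progeny, and the title of the table calls both groups embryos.

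Oatp proteins belong to the solute carrier organic anion family and sit in the plasma membrane, where they carry large amphipathic organic anions, steroid conjugates, hormones and drugs into cells. In flies they are known from the Malpighian tubule, the renal organ of the insect, where the Oatp58D transporters take part in the clearance of organic solutes such as the plant steroid ouabain. Oatp74D is the ecdysone importer, through which the insect steroid hormone enters its target cells. The RefSeq gene table also lists ecdysone importer names for Oatp33Ea, Oatp58Db and Oatp58Dc.

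Values per sample were not analysed here. Each gene has 1 log2 fold change in the authors' deposited table, beside a likelihood ratio, a p-value with its adjusted form and an average log2 CPM, which is the read count scaled to library size on a log2 scale. The table does not state which group is the numerator, so a fold change is called positive or negative and is not assigned to GFP control or InR-DN oocytes. A gene was called when the authors' adjusted p was under 0.05. A likelihood ratio above 0 was listed for 13080 genes, the tested genes, and all 8 Oatp genes were among them. Of the tested genes 667 were called, 342 positive and 325 negative. An SE was implied for each gene from its fold change and likelihood ratio, and 95% intervals were taken as 1.96 implied SE on either side. Nothing in the labels tells whether pools of the same group had separate parents. The deposited p-values then measure only the spread between samples in the authors' fit, and this spread may be technical. In pools of whole oocytes, fewer cells of a type that came along and less RNA per cell cannot be told apart.

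Called genes in the family lay together at 1 locus. The 3 Oatp58D genes were called, all with negative fold changes, and none of the 5 Oatp genes elsewhere was called in the authors' deposited table. Among all tested genes 5.10% were called, 2.48% with a negative and 2.61% with a positive fold change. The 3 calls were also made at an adjusted p under 0.01, passed by 3.75% of tested genes, and without genes whose average was under 0 log2 CPM, where 3.98% were called. Since the family was chosen on this comparison, nothing is read from the excess over that background. The median log2 fold change was -3.06 for the 3 Oatp58D genes, 0.15 for the 5 other Oatp genes and 0.03 for all tested genes. At an unadjusted p under 0.05, 2 of the 5 genes elsewhere were counted, 1 on each side of 0, against 11.4% of tested genes, 6.43% with a positive and 4.95% with a negative fold change.

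Oatp58Dc had the largest difference of the cluster in the authors' deposited table, with a log2 fold change of -3.26 (implied SE 0.34), a 9.61-fold difference. Its adjusted p was 8.0e-20 in the authors' deposited table, from edgeR's likelihood ratio test, and its interval ran from -3.92 to -2.60. Its p-value was the 56th smallest of the 13080 tested genes, and its fold change was the 142nd most negative. Few genes of like average abundance differed this much. Within 0.5 log2 CPM of its average lay 1712 tested genes, of which 22, or 1.29%, were called and 11 were called with a negative fold change. A fold change at least as large in either direction was listed for 5 of the 1712, Oatp58Dc included. The other 4, named after their values were seen, were CG12374 at 10.96, Scgdelta at 4.95, l(1)sc at -3.90 and gsb at -4.13, per the authors' deposited table. CG12374 encodes a metallocarboxypeptidase and Scgdelta a sarcoglycan, while l(1)sc and gsb encode transcription factors of the embryo. The 2 transcription factor genes were not called, with implied SE of 1.42 and 1.35 against 0.34 for Oatp58Dc. The 3 genes nearest to Oatp58Dc in average were CG15100 at -0.06, ewg at 0.32 and Notum at 1.02 on the log2 fold change scale of the authors' deposited table, and none of them was called.

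Oatp58Db stood close to Oatp58Dc in its fold change but at a much lower average. The authors' deposited table gave it a log2 fold change of -3.06 (implied SE 0.55), which is 8.35-fold, with an adjusted p of 1.6e-06. Its interval ran from -4.13 to -1.99 and overlapped that of Oatp58Dc. Of 642 tested genes within 0.5 log2 CPM of its average 17.0% were called, and 29 had a fold change at least as large. Calls were therefore common at that abundance, where they were rare around Oatp58Dc.

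Oatp58Da had the smallest difference of the cluster. The log2 fold change of -1.50 (implied SE 0.37), or 2.84-fold, came with an adjusted p of 0.0017 in the authors' deposited table. The interval of Oatp58Da, from -2.23 to -0.78, did not overlap that of Oatp58Dc but overlapped that of Oatp58Db. Around its average 107 of 600 tested genes, or 17.8%, were called, and 113 had a fold change at least as large.

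**Figure D1:**
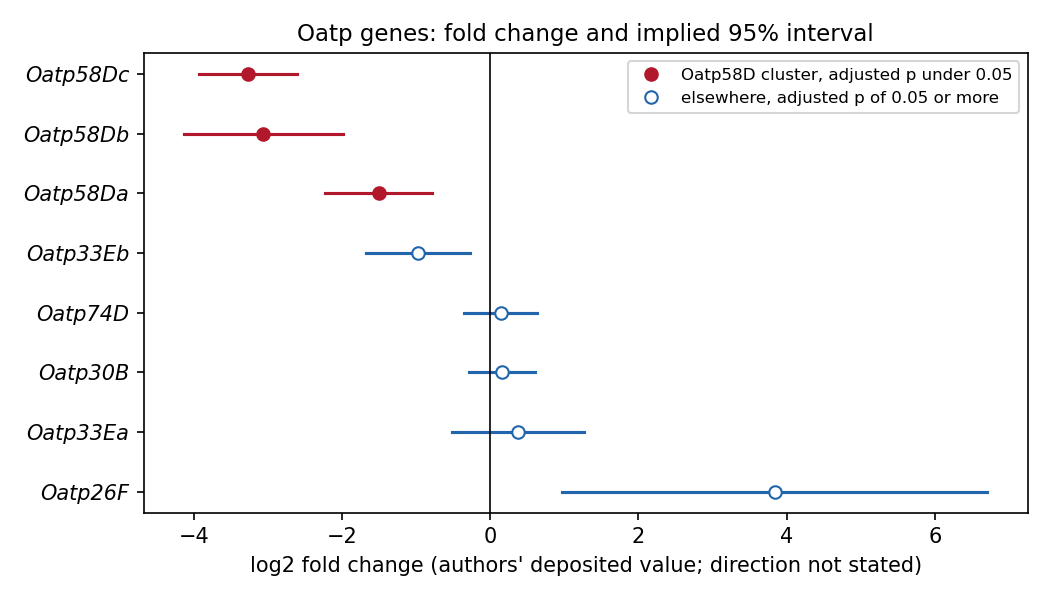
Log2 fold change of the 8 Oatp genes in the authors' deposited table (points) with the implied 95% interval (lines), ordered by value. Filled red points are the 3 called genes of the Oatp58D cluster, from -3.26 to -1.50, and open blue points are the 5 genes elsewhere, none called, of which Oatp26F has the widest interval.

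The 5 Oatp genes at other loci fell into different patterns. Oatp26F had the largest fold change of the family by size, 3.84 in the authors' deposited table, or 14.3-fold, and was not called. Its implied SE of 1.46 was 4.21 times the median of 0.35 among 496 tested genes of like average, and its adjusted p was 0.15 in the authors' deposited table. The interval of Oatp26F ran from 0.97 to 6.71, so the size of its difference was poorly fixed. It was the 63rd most positive fold change of the tested genes. Whether 1 sample carried that value cannot be seen without values per sample.

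Oatp33Eb was the uncalled member nearest to the threshold. The authors' deposited table gave it a log2 fold change of -0.97 (implied SE 0.36) with an adjusted p of 0.12. Its sign was that of the Oatp58D genes, and its interval, from -1.67 to -0.27, overlapped that of Oatp58Da and not those of Oatp58Db and Oatp58Dc. Per the authors' deposited table, Oatp33Ea, near it on chromosome arm 2L, was at 0.38 (implied SE 0.46), with an interval from -0.51 to 1.27. The intervals of these 2 genes overlapped.

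The ecdysone importer gene Oatp74D was close to 0, with a log2 fold change of 0.14, an adjusted p of 1 and an implied SE of 0.25 from the authors' deposited table. Oatp30B was at 0.15 (implied SE 0.23) with the same adjusted p in the authors' deposited table. Intervals from -0.35 to 0.63 for Oatp74D and from -0.29 to 0.60 for Oatp30B lay within a 2-fold difference in either direction. That held for no other member, but for 6960 of the 13080 tested genes. The intervals of Oatp74D and Oatp30B lay apart from those of all 3 Oatp58D genes.

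**Figure D2:**
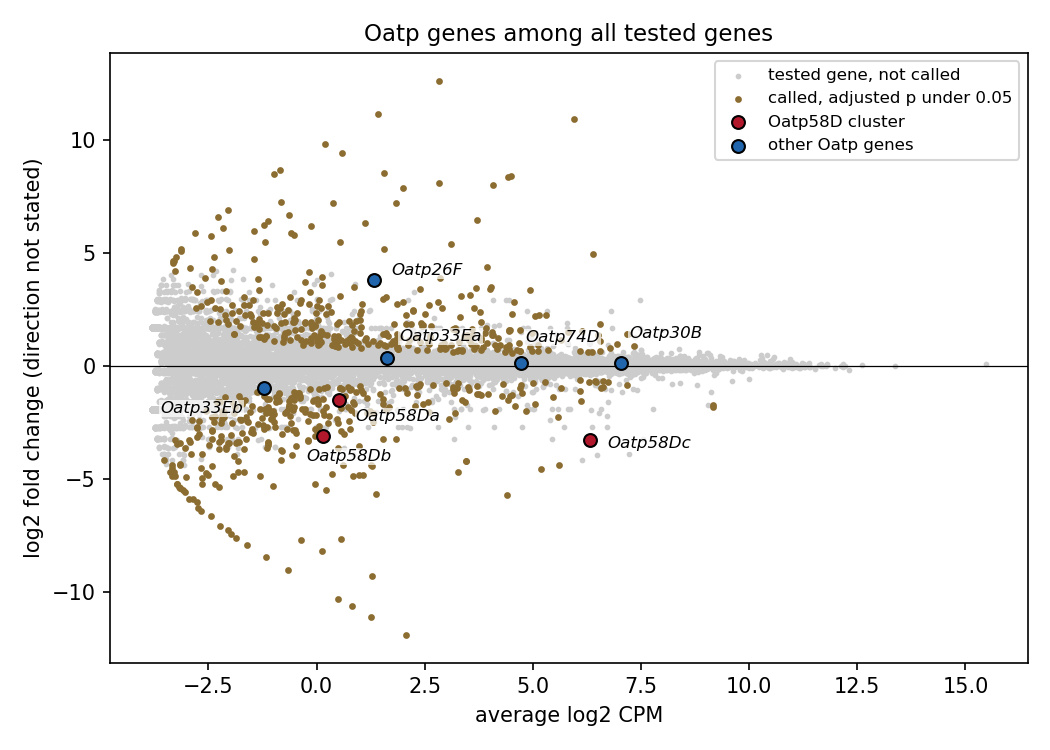
Log2 fold change against average log2 CPM, both from the authors' deposited table, for the 13080 tested genes, called genes in brown and the Oatp genes as large points (red for the Oatp58D cluster, blue for the others). Oatp58Dc, at an average of 6.33, lies where few genes are called, while Oatp58Da and Oatp58Db lie among many called genes of low average.

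The averages set Oatp58Dc apart from its neighbours in the cluster. The authors' deposited table lists averages on the log2 CPM scale of 6.33 for Oatp58Dc, 0.52 for Oatp58Da and 0.14 for Oatp58Db. Divided by the annotated exon length in kb, the averages were 25.6 CPM per kb for Oatp58Dc, 0.664 for Oatp58Da and 0.527 for Oatp58Db. Oatp58Dc was thus 38.5 and 48.5 times above the other genes of its cluster per length. Next to Oatp58Dc stood Oatp30B with 23.5 CPM per kb, followed by Oatp74D with 6.41. Oatp26F and Oatp33Ea had 1.04 and 1.02 CPM per kb, and Oatp33Eb was lowest with 0.158. No spread between samples can be given for these averages, so neighbours in the order as close as Oatp58Dc and Oatp30B, or Oatp26F and Oatp33Ea, are not ranked apart. Which libraries enter the deposited average is not stated, so it may not be the level in the 2 groups compared.

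**Figure D3:**
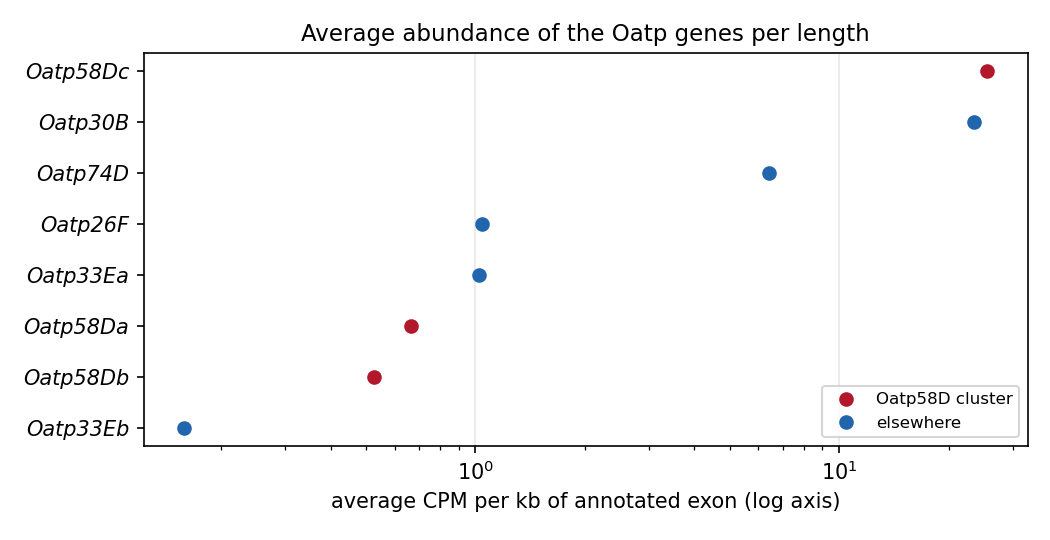
Average CPM per kb of annotated exon (log axis) for the 8 Oatp genes, with the Oatp58D cluster in red and the other genes in blue. Oatp58Dc, at 25.6, is beside Oatp30B at the top, and Oatp58Da and Oatp58Db are below 1 CPM per kb.

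The loci differ in arrangement. Oatp58Da, Oatp58Db and Oatp58Dc follow each other on 1 strand of chromosome arm 2R. No other gene lies between them in the RefSeq gene table, leaving aside genes whose names could not be matched. Their longest annotated proteins have 684, 680 and 789 residues in the Ensembl annotation. Oatp58Dc has 3 annotated transcripts and the others 1 each. None of the neighbours of the cluster was called, where 5.10% of all tested genes were. At that share so few neighbours would seldom include a called gene. On the side of Oatp58Da the nearest 3 genes of the authors' deposited table were CG30278 at 1.69, ari-2, which encodes a ubiquitin ligase, at 0.06 and CG11291 at -0.25. On the side of Oatp58Dc the nearest were CR44755, a noncoding gene with a likelihood ratio of 0, the homeobox gene dve at 1.02 and CG5819 at -0.28 in the authors' deposited table. The interval of ari-2, from -0.33 to 0.45, was narrow. That of CG30278 reached from -1.36 to 4.75 and that of CG11291 from -3.37 to 2.87, so both were poorly fixed. The annotated spans of CG30278 and Oatp58Da overlap on the same strand. Whether their exons share a stretch, where reads could not be assigned to either gene, was not examined. The calls at this locus were thus those of the 3 Oatp58D genes among the 9 genes compared, of which CR44755 was not tested. Whether the difference is confined to the Oatp58D genes cannot be told from these neighbours. Reads shared between related Oatp58D genes were not excluded.

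Oatp33Ea and Oatp33Eb lie on opposite strands of 2L with CG5421 between them. Neither they nor their neighbours were called, where 5.10% of all tested genes were. For CG5421 the authors' deposited table lists 1.04, and the implied SE was 1.29. Beyond Oatp33Ea came snoRNA:SC35-b at 1.03, snoRNA:SC35-a at 1.80 and the splicing factor gene SC35 at 0.26 in the authors' deposited table, leaving aside genes whose names could not be matched. Beyond Oatp33Eb came CG5418 at -0.28, bun, a transcription factor gene, at 0.16 and mir-967 at 0.30 in the authors' deposited table. CG5418 overlaps Oatp33Eb on the other strand, and the sources used here do not say whether reads were counted by strand. Oatp26F, also on 2L, overlaps CG34345, listed at 2.93 by the authors' deposited table with a wide implied SE of 1.59. The next matched gene on the other side of Oatp26F, CG31635, had a value of 0.13 there (implied SE 0.18), again from the authors' deposited table. Oatp30B and Oatp74D also overlap other genes, CG31883 and edin, listed at -0.22 and -0.23 by the authors' deposited table. The implied SE of CG31883 and edin were 1.48 and 1.55.

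**Figure D4:**
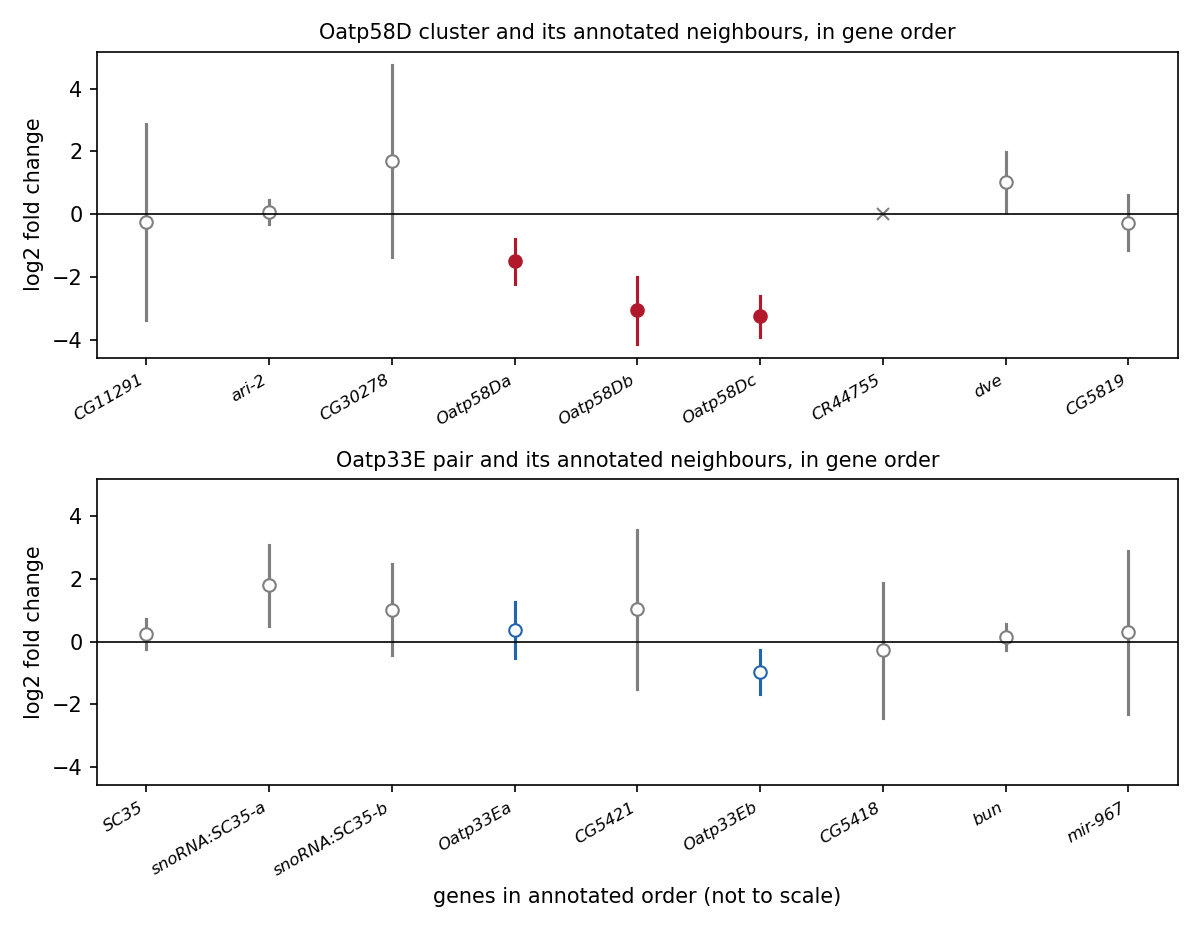
Log2 fold change (points) and implied 95% interval (lines) of the Oatp58D cluster (upper panel) and the Oatp33E pair (lower panel) with the 3 nearest matched genes on either side, in annotated order and not to scale. Filled points are called genes, which are the 3 Oatp58D genes, and a cross marks CR44755, which has a likelihood ratio of 0 and no interval.

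Other carriers of organic ions gave calls in both directions. The list of transporters related to the SLC22 family, which move organic cations and anions across the plasma membrane, had 21 tested members of 23. Of these 4 were called with negative and 2 with positive fold changes, against 2.48% and 2.61% of all tested genes. The other 15 were not called, and the median was 0.13. The negative genes in the authors' deposited table were CG16727 at -4.13 (implied SE 0.43), CG17752 at -2.88 (implied SE 0.31), CG17751 at -2.68 (implied SE 0.39) and CG7084 at -1.98 (implied SE 0.32). CG17751, CG17752 and CG16727 are consecutive tested genes on 3R, as the Oatp58D genes are on 2R. Without genes whose average was under 0 log2 CPM, CG16727 and CG17751 leave the test and the calls are 2 negative and 2 positive. Per the authors' deposited table, the positive genes were Orct at 1.68 (implied SE 0.23) and CG6356 at 1.36 (implied SE 0.37). Orct encodes an organic cation transporter, and Orct2, its relative, was not called, at 0.42.

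The exporters of the ABCB and ABCC families, which pump drugs and conjugated anions out of cells, had 2 called genes of 17 tested, both positive. In the authors' deposited table these were CG10505 at 2.51 (implied SE 0.40) and a second gene of the ABCC family at 1.16 (implied SE 0.25). No exporter was called with a negative fold change, where 2.48% of all tested genes were so called and 2.61% were called positive. CG31792 was the most negative, and the authors' deposited table lists it at -2.07 with an adjusted p of 0.37 (implied SE 0.96). Per the authors' deposited table, the multidrug resistance gene Mdr49 was at -0.11 and the conjugate exporter gene MRP at 0.26.

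Ecdysone is the hormone that Oatp74D imports. Of 23 tested genes of its synthesis and response, 2 were called, 1 in each direction, against 5.10% of all tested genes. Both act in hormone synthesis. The oxygenase gene nvd, which converts cholesterol in the first step, has a value of 1.10 (implied SE 0.28), and the reductase gene sro one of -1.67 (implied SE 0.31), per the authors' deposited table. At an unadjusted p under 0.05, 11 of the 23 lay on the positive and 1 on the negative side, and 19 of the 23 fold changes were positive with a median of 0.32. All tested genes also leaned to the positive side, with 7311 positive and 5769 negative fold changes, and 841 positive against 647 negative at an unadjusted p under 0.05. The cytochrome P450 genes of synthesis dib, phm and shd were not called, with 1.09, 0.79 and 0.84 listed by the authors' deposited table. For the receptor genes EcR and usp the authors' deposited table lists 0.05 and 0.07, beside 0.14 for Oatp74D. The other members with ecdysone importer names were at 0.38 for Oatp33Ea, -3.06 for Oatp58Db and -3.26 for Oatp58Dc in the authors' deposited table.

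Genes of the Malpighian tubule, where Oatp58D transporters are known, had negative calls in part of the list. Of 20 tested genes 3 were called, all negative, and 17 were not, where 2.48% of all tested genes were called with a negative fold change. Over the whole list 12 fold changes were negative and 8 positive, with a median of -0.19. At an unadjusted p under 0.05, 7 lay on the negative and 1 on the positive side, against 4.95% and 6.43% of all tested genes. Uro, the urate oxidase gene that is expressed in the principal cells of the tubule, stood at -4.38 (implied SE 0.35) with an average of 0.61 log2 CPM, per the authors' deposited table. Smvt, of the sodium-dependent multivitamin transporter family, was at -2.22 (implied SE 0.37), and the potassium channel gene Irk2 at -1.13 (implied SE 0.36), per the authors' deposited table. The Capa peptide receptor gene CapaR was not called, although the authors' deposited table lists it at -2.38 (implied SE 0.92). Other genes used by the tubule had values close to 0, among them ZnT35C at -0.01, Drip at -0.09 and Picot at 0.09 in the authors' deposited table. Uncalled genes above 0 included CG4019, an aquaporin-family gene, at 0.88, the potassium channel gene Irk1 at 0.50, CG17664 at 0.43 and the homeobox gene ct at 0.32, per the authors' deposited table. Several of the 20 genes are also expressed elsewhere, and averages ran from -2.94 for Lkr to 7.61 for tsh on the log2 CPM scale. The part of tubule RNA in the fold changes of the Oatp58D genes was not tested.

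Markers of other tissues were called on both sides. Of all tested genes 2.48% were called negative, 2.61% positive and 5.10% in either direction. The hindgut list, of transcription factor genes, had a median of -1.35 and 1 called gene of 6. This was byn, for which the authors' deposited table lists -4.68 (implied SE 1.26). Whether these 6 genes are particular to the hindgut was not examined. The median implied SE of the hindgut list was 0.92, against 0.32 for all tested genes. The values of byn, otp, drm and Dr were poorly fixed. Those of bowl at 0.21 (implied SE 0.20) and lin at -0.11 (implied SE 0.19) were not, and neither gene was called, per the authors' deposited table. All 7 spermathecal genes had negative fold changes, from -9.03 to -3.15, and 6 were called. The 4 largest in the authors' deposited table were CG32834 at -9.03, Send1 at -8.43, CG31681 at -8.19 and CG17239 at -7.93. Averages of the 7 were low, from -2.67 to 0.13 log2 CPM, and their median implied SE was 0.78, so the size of these values was poorly fixed. Midgut enzyme genes lay on the opposite side, with 16 positive calls and 1 negative call among 19 tested genes. Those with the largest values in the authors' deposited table were LysB at 8.55, Jon25Bi at 8.43, Jon99Ci at 8.12 and Jon25Bii at 8.01. The fat body list had 2 positive calls of 10, Lsp2 at 3.73 and Lsp1beta at 2.71 in the authors' deposited table. No call was made among 17 eggshell genes, where Cp15 had the highest average and was at -0.15, or among 13 muscle genes, where Act87E had the highest average and was at 0.01, per the authors' deposited table. Unadjusted p were under 0.05 for 0 of the eggshell and 4 of the muscle genes, against 11.4% of all tested genes. All 13 muscle fold changes were positive, from 0.01 to 1.38, with a median of 0.53. Of the 17 eggshell fold changes 16 were positive, with a median of 0.22 over the list. The part of these tissues in the Oatp values was not tested.

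Values of 16 oocyte and maternal genes were set beside the oocyte label. Maternal RNA passes into the embryo, so these genes cannot tell oocytes from embryos. All were listed, with average log2 CPM from 3.11 to 10.99. All 16 intervals lay within a 2-fold difference, as did those of 6960 of the 13080 tested genes. None was called by edgeR's likelihood ratio test as the authors ran it, against 5.10% of all tested genes. An unadjusted p under 0.05 was listed for 0 of them, against 11.4% of all tested genes. A list of 16 is too short for 0 calls to stand apart from the 5.10%. CycB, with the highest average, was at 0.13 in the authors' deposited table.

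**Figure D5:**
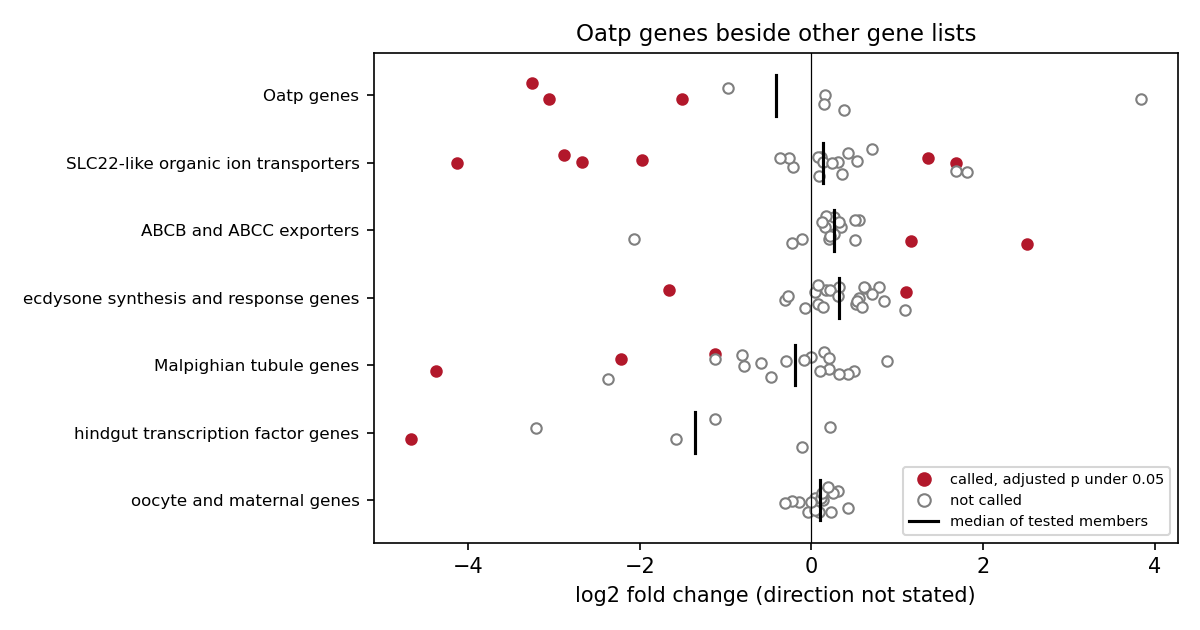
Log2 fold change of each tested gene in the Oatp family and in 6 other lists, with called genes filled in red, uncalled genes open and the median as a vertical line; vertical scatter within a list has no meaning. Negative calls are seen in the Oatp, SLC22-like, ecdysone, tubule and hindgut lists, and the oocyte genes lie between -0.31 and 0.43.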

How the data were processed

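RNA of 6 oocyte pools was sequenced, polyA selected per the labels and with a stranded total RNA kit per the labels' protocols. FastQC, Bowtie and TopHat are named, without versions, per the submitters' processing notes. The counter, build and strand setting were not given in any source used here. Per the file headers, the authors' deposited table holds the p-value of each gene with its adjusted form, the likelihood ratio as a score, and the fold change and average CPM on a log2 scale, and its title names edgeR's likelihood ratio test. The depth per sample is unknown.

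Recomputing p from the likelihood ratio by a chi-square distribution gave values within 6.4e-15 of those deposited, and a Benjamini-Hochberg adjustment over all 14862 genes gave adjusted p within 3.6e-15. The implied SE is the size of the fold change divided by the square root of the likelihood ratio. It rests on the authors' model and is no spread between samples.

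The Oatp genes and the 11 lists were chosen with earlier results of these data known. Of the listed names 13 were found by synonym, and 2 repeated a gene. Named genes are the members, the 3 nearest matched genes on either side of the 2 multi-gene loci, called members of the carrier, exporter and ecdysone lists (1 exporter is given by family only), up to 4 called markers a tissue (or that of highest average), and the 3 genes nearest to Oatp58Dc in average. Other named genes were chosen after their values were seen. Gene order is from the RefSeq table (Release 6) and exon lengths from Ensembl release 115. Neither is known to be the authors' build, so no coordinates are given, and sequences were not used here. Alternatives changed the genes adjusted over and the threshold. The tools were matplotlib 3.10.9, scipy 1.17.1, numpy 2.4.6 and pandas 2.3.3 in Python 3.11.15, and the adjustment was tested on simulated data.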

Additional observations from a re-analysis of the deposited data

How the results depend on the processing

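The 3 calls in the Oatp58D cluster and the 0 calls among the other Oatp genes were the same without genes whose average was under 0 log2 CPM, with genes of likelihood ratio 0 left out, at an adjusted p under 0.01 and with a fold of at least 2 required. Oatp33Eb left the test with the first of these, and Oatp58Db stayed by a small margin, with an average log2 CPM of 0.14. With those low averages left out, calls fell from 667 to 344 of 8645 tested genes, and from 39 to 25 over all other lists together. The same setting left 1 call in the exporter list, 1 in the spermathecal list, of 1 tested gene, and 0 in the fat body list. It also took CG16727 and CG17751 from the SLC22-like calls, which became 2 negative and 2 positive, and Irk2 from the tubule calls, which became 2. At an adjusted p under 0.01 the tubule list likewise had 2 calls, without Irk2. Leaving out single samples was not run. No paired analysis was possible because only 1 comparison per gene, with no sample's own value, was at hand. The depth behind each value is unknown, so what it limits cannot be given.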

Other observations

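Along the annotated gene order, 18 stretches held 3 or more consecutive tested genes that were all called with 1 sign in the authors' deposited table, 11 positive and 7 negative. The Oatp58D cluster and the CG17751, CG17752 and CG16727 genes are 2 of the 7 negative stretches. The longest negative stretch had 6 genes on 3R, CG11889, CG11891, CG11878, CG10513, CG10514 and CG11892, and the authors' deposited table lists them between -3.51 and -1.19. Another negative stretch held the secreted protease genes Ser12, CG17239, CG17234 and Send1, from -8.43 to -6.39. The positive stretches included the trypsin genes thetaTry, alphaTry, epsilonTry and betaTry and the lysozyme genes LysB, LysC, LysD and LysE. Neighbours in a stretch can share reads through overlap or relatedness, and in CG13510, CG13511 and CG42565 all 3 listed fold changes were 0.76 in the authors' deposited table.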
